A study of Mus musculus with 6 samples.

Results

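The genes described here are 10 genes of blood vessel growth: the receptors *Flt1*, *Kdr*, *Tek*, *Tie1* and *Aplnr*, the ligands *Angpt1*, *Angpt2* and *Apln*, the tip-cell gene *Esm1* and the endothelial surface gene *Emcn*. They were chosen by symbol, and all 10 were found among the 34745 genes of the table. They were measured by RNA sequencing of mouse cerebral cortex at postnatal day 8. The 3 cKO samples were Pen-2 F/F mice carrying the hGFAP-Cre transgene. The 3 control samples carried Pen-2 F/F alone, with no Cre named in the labels. Both groups therefore had floxed Pen-2 alleles and differed by the transgene, so what the deletion did and what Cre itself did cannot be told apart. Pen-2 is encoded by *Psenen* and is a subunit of γ-secretase, the protease that cleaves Notch receptors. The human GFAP promoter drives Cre in neural progenitors, and the neurons and glia that descend from them inherit the deletion. Endothelial cells belong to another lineage. No label says that the samples are from different animals, and the p-values then rest on the spread among these samples, which may be technical.

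Vessels of the postnatal cortex multiply by sprouting. Endothelial tip cells lead each sprout along a gradient of VEGF, which acts through the receptor encoded by *Kdr*, while the receptor encoded by *Flt1* binds VEGF tightly and limits its action. Angiopoietin 1 activates the TIE2 receptor, encoded by *Tek*, and stabilises vessels, whereas angiopoietin 2 is made by endothelial cells and can block that activation. Apelin, which tip cells secrete, signals to its G-protein-coupled receptor on neighbouring endothelial cells. Notch signalling, started by the ligand encoded by *Dll4*, restrains tip-cell fate.

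Promoter sequence was matched for 7 of the 10 genes (*Apln*, *Emcn*, *Esm1*, *Flt1*, *Kdr*, *Tek* and *Tie1*) in the RefSeq table of GRCm38.p6. The 250 bases before the start are shown for both VEGF receptor genes, because they are the paired receptors of one ligand, and for *Emcn*, which had the largest fold change among the genes with a matched promoter that were tested. They read 5′ to 3′ on the strand of the gene, and capitals mark GTGGGAA, the core letters bound by the Notch effector RBPJ, and AGGAAG, a core bound by ETS factors of endothelial cells, on either strand. The *Kdr* window is chr5:75978456-75978705 (minus strand), the *Flt1* window chr5:147726012-147726261 (minus strand) and the *Emcn* window chr3:137340828-137341077 (plus strand).
Kdr: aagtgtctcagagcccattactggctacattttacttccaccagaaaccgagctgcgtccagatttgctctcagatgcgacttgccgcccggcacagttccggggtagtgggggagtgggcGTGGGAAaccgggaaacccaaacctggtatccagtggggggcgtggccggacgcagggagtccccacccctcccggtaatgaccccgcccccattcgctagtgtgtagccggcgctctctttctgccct
Flt1: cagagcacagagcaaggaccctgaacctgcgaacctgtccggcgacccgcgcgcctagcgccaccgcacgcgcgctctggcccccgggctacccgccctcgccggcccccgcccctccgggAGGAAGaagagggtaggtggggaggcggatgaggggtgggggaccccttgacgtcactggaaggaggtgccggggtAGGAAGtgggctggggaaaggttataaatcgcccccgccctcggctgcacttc
Emcn: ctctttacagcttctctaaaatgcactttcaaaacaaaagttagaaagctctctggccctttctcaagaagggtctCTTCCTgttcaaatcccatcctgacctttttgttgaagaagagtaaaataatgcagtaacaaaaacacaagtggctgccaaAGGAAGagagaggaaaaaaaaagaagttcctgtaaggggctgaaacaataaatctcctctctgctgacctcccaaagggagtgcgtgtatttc

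GTGGGAA was found in 2 of the 7 windows, those of *Kdr* and *Tie1*, and in 5.42% of 32851 promoter windows of the same length. The *Tie1* window (chr4:118489850-118490099, minus strand) lies mostly inside the annotated range of the gene, which reaches 118490061. Its GTGGGAA, 16 bases before the RefSeq start, is therefore within the annotated gene. The sequence checked after that start matched no annotated *Tie1* transcript. AGGAAG was found in 4 of the 7, those of *Apln*, *Emcn*, *Flt1* and *Tie1*, and in 29.5% of all windows. Of the hypoxia response core letters, GCGTG was found in 4 of the 7 and in 28.2% of all windows, and ACGTG in 0 of the 7 and in 16.6%. The forkhead core TGTTTAC was found in 0 of the 7 and in 3.17%. In *Kdr*, GTGGGAA overlapped a GCGTG. The motifs were searched on both strands and were chosen after some matches had been seen, and a match says only that the letters are present.

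Values are FPKM, fragments scaled by transcript length and library size, so levels can be compared between genes. The smallest steps between values implied 25123100 to 26809300 fragments per library in cKO and 20251900 to 24872600 in control samples. *Psenen* was 3.56, 3.90 and 4.03 FPKM in cKO, against 6.35, 6.86 and 7.32 FPKM in control cortex (log2 fold change -0.82, limma adjusted p = 0.00441). Differences were tested with limma on log2(FPKM + 0.1) over the 14147 genes that reached 0.5 FPKM in 3 or more libraries, with Benjamini-Hochberg adjustment over all of them. Neuronal genes of the cortex such as *Tubb3* (1141 ± 45.1 FPKM in cKO and 1404 ± 41.7 FPKM in control, SD, n = 3 each) were abundant. The choroid plexus gene *Ttr* was uneven within groups, at 323.8, 181.8 and 876.5 FPKM in cKO and 33.1, 103.5 and 178.1 FPKM in control libraries, and the third cKO library held the most.

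Among the 10 genes, *Angpt2* rose and no other gene passed the test. Of the 9 that passed the filter on low values, 1 was called higher and 0 lower, where 5.53% of all tested genes were called, 3.67% higher and 1.87% lower. At an unadjusted p under 0.05 there were 5 of 9, against 22.9% of all tested genes. In *Angpt2*, *Aplnr*, *Tek*, *Tie1*, *Flt1*, *Emcn* and *Esm1* every cKO library lay above every control library. For *Angpt1* every cKO library lay below, and for *Kdr* and *Apln* the groups overlapped. Among the tested genes 6 of 9 lay above without overlap and 1 of 9 below, where 21.5% of all tested genes lay above and 8.17% below. The median log2 fold change of the 9 was 0.26, beside 0.07 over all tested genes. *Esm1* did not pass the filter and is not in these counts of 9. *Emcn* is in them, also among the 5 and the 6, but it passed the filter through its cKO libraries, since 1 of its 3 control libraries reached 0.5 FPKM. The counts and the median over the 9 are therefore a description.

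**Figure D1:**
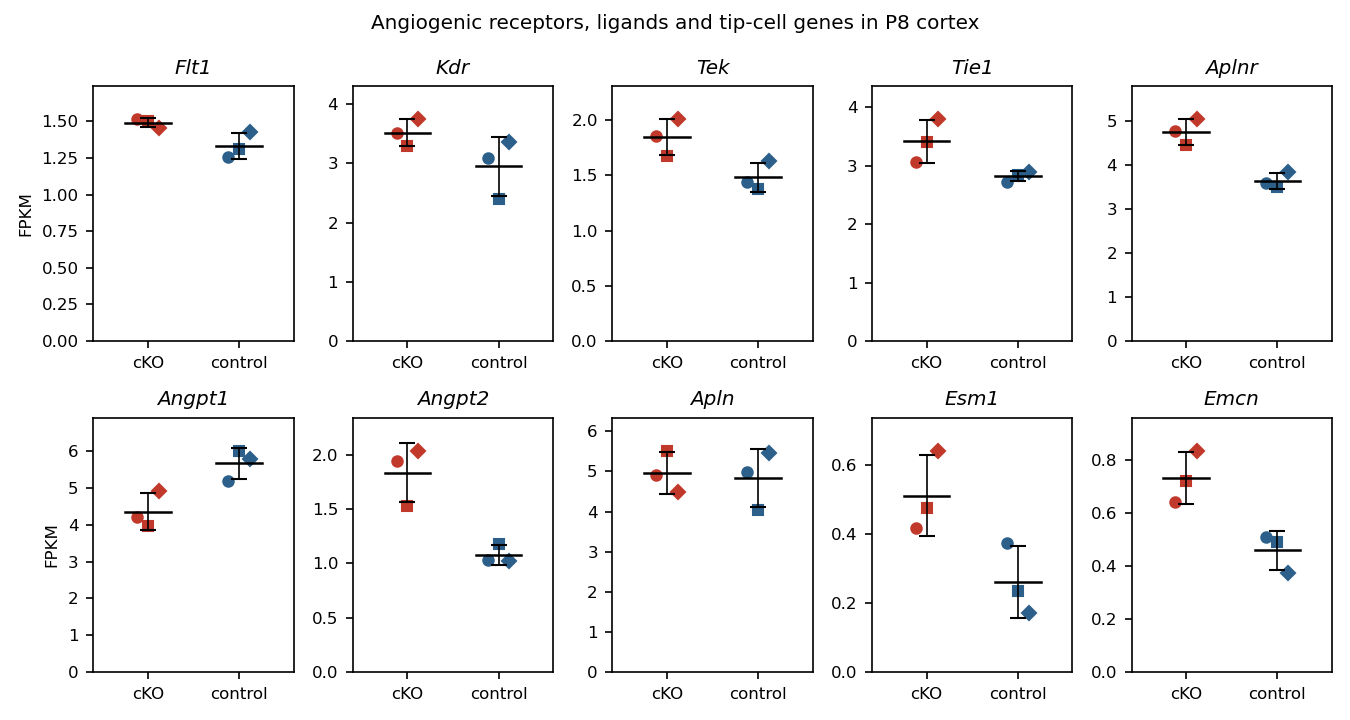
FPKM of each of the 10 genes in each library (vertical axis, from 0, a scale for each gene), cKO in red left of control in blue. Circles, squares and diamonds are replicates 1, 2 and 3, the long line is the mean and the bar the SD over 3 libraries. *Angpt2* sits between 1.53 and 2.03 FPKM in cKO and between 1.02 and 1.18 FPKM in control libraries, while the *Apln* groups overlap.

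Of the angiopoietins, the gene for the TIE2-blocking ligand rose, while the gene for the activating ligand was lower in every cKO library without passing the test. *Angpt2* (ENSMUSG00000031465, mm10 chromosome 8, 18690263 to 18741562) was 1.94, 1.53 and 2.03 FPKM in cKO, against 1.03, 1.18 and 1.02 FPKM in control cortex. The lowest cKO library stood above the highest control library. Its mean was 1.83 ± 0.270 FPKM in cKO and 1.08 ± 0.0876 FPKM in control cortex (SD, n = 3 each), a log2 fold change of 0.71 (SE 0.16, 95% interval 0.34 to 1.07, limma adjusted p = 0.0455). The call lay close to the threshold: with any 1 of the 6 libraries left out the log2 fold change was 0.63 to 0.83 and the adjusted p 0.0675 to 0.156, and it was 0.106 without the third cKO library. The adjusted p was 0.0621 with median-ratio scaling, 0.0641 with upper-quartile scaling and 0.0744 with no filter. In the authors' deposited table *Angpt2* had a q-value of 0.0573 and no call.

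*Angpt2* lies inside the range of *Mcph1* (chromosome 8, 18595131 to 18803189), a gene of chromosome condensation on the other strand. Whether counting used strand is not given in the sources used here, so fragments of both cannot be told apart where they overlap. *Mcph1* was 1.28, 1.58 and 1.46 FPKM in cKO and 1.45, 1.40 and 1.27 FPKM in control libraries, and its groups overlapped (log2 difference 0.06, 95% interval -0.27 to 0.39).

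*Angpt1*, the activating ligand, which perivascular cells secrete (ENSMUSG00000022309, chromosome 15, 42424727 to 42676977), was 4.21, 3.95 and 4.90 FPKM in cKO, against 5.18, 5.997 and 5.78 FPKM in control cortex. The groups did not overlap. Its log2 difference was -0.37 (SE 0.11, 95% interval -0.63 to -0.12, limma adjusted p = 0.0998), which did not pass. The adjusted p was 0.0699 to 0.272 with any 1 library left out, lowest without the third cKO library. *Gm17473*, which overlaps its start on the other strand, was 0.0679 to 0.244 FPKM in cKO and 0.0366 to 0.225 FPKM in control libraries.

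The angiopoietins were also set against each other within a library. The ratio of *Angpt2* to *Angpt1* was 0.461, 0.387 and 0.415 in cKO, against 0.199, 0.197 and 0.177 in control cortex. With 0.1 FPKM added to each gene, the ratio was 2.12-fold higher in cKO (log2 difference 1.08). The log2 difference was 1.13 with 0.01 FPKM added and 0.76 with 1 FPKM added. It was 1.02 to 1.14 with any 1 library left out and 0.1 FPKM added. An exact two-sided permutation test gave p = 0.1, the smallest that 3 against 3 libraries allow. A ratio shows unequal change and not which gene moved.

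**Figure D2:**
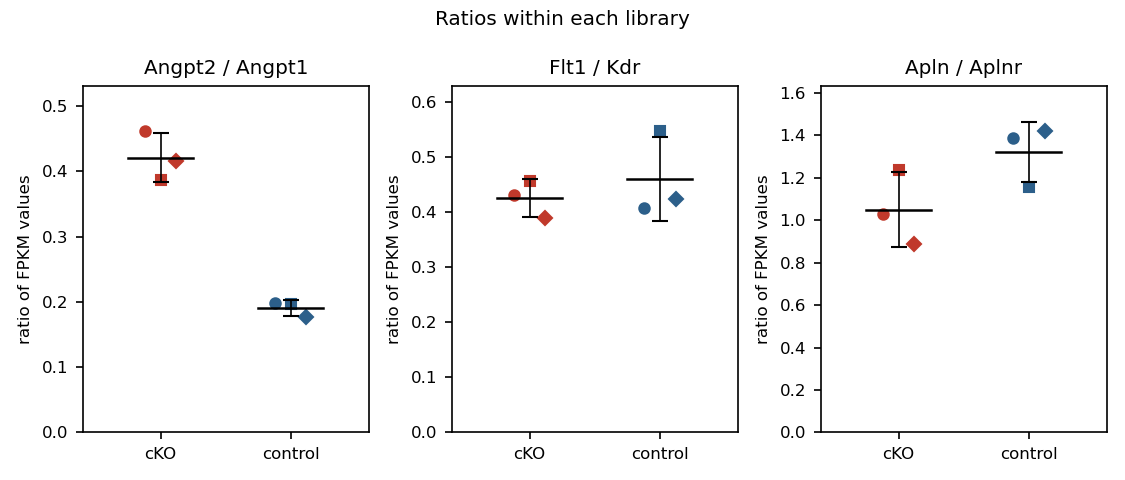
Ratio of FPKM values within each library (vertical axis, from 0) for 3 pairs, cKO in red left of control in blue. Symbols are replicates 1, 2 and 3 (circle, square, diamond), with the mean and SD over 3 libraries. The *Angpt2* to *Angpt1* ratio lies between 0.387 and 0.461 in cKO and between 0.177 and 0.199 in control libraries, and the other two pairs overlap.

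The genes of the angiopoietin receptor and its partner stood slightly higher in cKO cortex, without passing. *Tek*, which encodes TIE2 (ENSMUSG00000006386, chromosome 4, 94739289 to 94874976), was 1.86, 1.68 and 2.01 FPKM in cKO, against 1.44, 1.38 and 1.63 FPKM in control libraries (log2 difference 0.30, 95% interval -0.01 to 0.61, limma adjusted p = 0.238). *Tie1*, the related receptor that pairs with TIE2 (ENSMUSG00000033191, chromosome 4, 118471191 to 118490061), was 3.06, 3.41 and 3.80 FPKM in cKO, against 2.73, 2.85 and 2.89 FPKM in control libraries (log2 difference 0.26, 95% interval 0.0044 to 0.52, limma adjusted p = 0.212). The groups of neither gene overlapped, by a narrow margin in *Tek*. *Ptprb*, the endothelial phosphatase that acts on TIE2, was 1.89 ± 0.136 FPKM in cKO and 1.88 ± 0.0849 FPKM in control (SD, n = 3 each). *Angpt4*, a further TIE2 ligand, was listed at 0 in 4 of the 6 libraries.

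The VEGF receptor genes did not pass either. *Kdr* (ENSMUSG00000062960, chromosome 5, 75932827 to 75978458) was 3.52, 3.29 and 3.74 FPKM in cKO, against 3.09, 2.40 and 3.36 FPKM in control libraries. Its lowest cKO value fell below its highest control value, and the log2 difference was 0.26 (95% interval -0.07 to 0.59, limma adjusted p = 0.330). *Flt1* (ENSMUSG00000029648, chromosome 5, 147561604 to 147726011) was 1.51, 1.504 and 1.46 FPKM in cKO, against 1.26, 1.31 and 1.43 FPKM in control libraries. Its log2 difference was 0.15 (95% interval -0.14 to 0.45, limma adjusted p = 0.522), and it was -0.01 when libraries were centred on endothelial genes. Both intervals overlapped that of *Angpt2*, 0.34 to 1.07, and no difference between genes was tested. The gene-level values do not separate the membrane form of FLT1 from its soluble form. The *Flt1* to *Kdr* ratio averaged 0.425 ± 0.0341 in cKO and 0.459 ± 0.0760 in control libraries (SD, n = 3 each; exact two-sided permutation p = 0.7).

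In the apelin pair the receptor gene and not the ligand gene stood apart. *Aplnr* (ENSMUSG00000044338, chromosome 2, 85136225 to 85139923), a receptor of venous and sprouting endothelium, was 4.78, 4.46 and 5.05 FPKM in cKO, against 3.58, 3.49 and 3.85 FPKM in control libraries. All cKO libraries were above all control libraries. Its log2 difference was 0.38 (SE 0.09, 95% interval 0.16 to 0.59, limma adjusted p = 0.0620), just outside the threshold. The adjusted p was 0.0352 with equal sums per library, 0.125 with median-ratio scaling, 0.119 with upper-quartile scaling, 0.0969 with the replicate block and 0.0587 to 0.188 with any 1 library left out. *Apln* (ENSMUSG00000037010, chromosome X, 48025146 to 48034853) was 4.92, 5.51 and 4.48 FPKM in cKO, against 4.98, 4.05 and 5.46 FPKM in control libraries, with a log2 difference of 0.05 (95% interval -0.27 to 0.36, limma adjusted p = 0.880). Its sign turned with median-ratio and upper-quartile scaling. *Apln* has a single annotated transcript, and its values came to about 389, 453 and 378 fragments in cKO and 339, 258 and 428 in control libraries. The *Apln* to *Aplnr* ratio was 1.03, 1.24 and 0.887 in cKO, against 1.39, 1.16 and 1.42 in control libraries, and overlapped (exact two-sided permutation p = 0.2). *Apela*, the other ligand of the receptor, was under 0.1 FPKM in all 6 libraries.

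The tip-cell gene *Esm1* and the sialomucin gene *Emcn* were the lowest of the 10 and were higher in every cKO library. *Esm1*, which encodes the secreted proteoglycan endocan (ENSMUSG00000042379, chromosome 13, 113209659 to 113218098), was 0.417, 0.475 and 0.640 FPKM in cKO, against 0.375, 0.235 and 0.173 FPKM in control libraries. It has a single annotated transcript, and these values are 22, 26 and 36 fragments in cKO and 17, 10 and 9 in control libraries, each within 0.0103 of a whole number. With no filter on low values its log2 difference was 0.78 (SE 0.27, 95% interval 0.13 to 1.43, limma adjusted p = 0.219), which did not pass. Its range lies within that of *Gzmk* (chromosome 13, 113171608 to 113225908) on the other strand, which was 0.338, 0.309 and 0.150 FPKM in cKO and 0.0207, 0.0884 and 0.450 FPKM in control libraries. *Emcn*, a marker of capillary and venous endothelium (ENSMUSG00000054690, chromosome 3, 137341067 to 137432185), was 0.640, 0.722 and 0.834 FPKM in cKO, against 0.510, 0.491 and 0.375 FPKM in control libraries. Its log2 difference was 0.58 (SE 0.20, 95% interval 0.11 to 1.05, limma adjusted p = 0.146). That test supports nothing on its own, since the gene entered it through the group in which it was high, and it had no value with a filter at 1 FPKM.

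**Figure D3:**
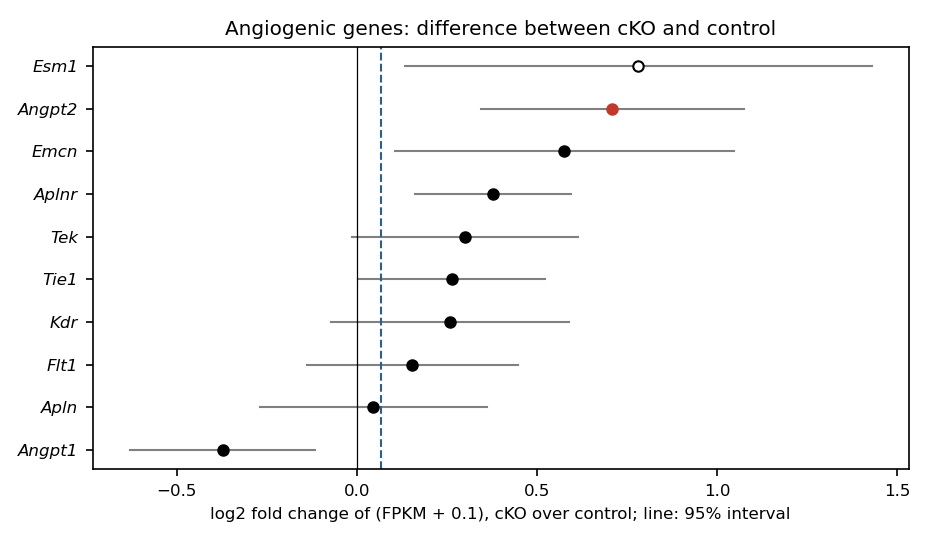
Log2 fold change of FPKM + 0.1, cKO over control (horizontal axis), with the limma 95% interval, for the 10 genes from highest to lowest. The red point passed an adjusted p of 0.05, the open point is *Esm1* with no filter on low values, and the dashed line is the median over all tested genes, 0.07. *Angpt2* at 0.71 is the red point and *Angpt1* at -0.37 is the one gene below 0.

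By level, the 10 genes ran from *Apln* at 4.97 FPKM to *Esm1* at 0.511 FPKM in cKO cortex, and from *Angpt1* at 5.65 FPKM to *Esm1* at 0.261 FPKM in control cortex. In cKO cortex the order was *Apln*, *Aplnr*, *Angpt1*, *Kdr*, *Tie1*, *Tek*, *Angpt2*, *Flt1*, *Emcn* and *Esm1*. Neighbours whose library ranges overlapped there were *Apln* with *Aplnr*, *Aplnr* with *Angpt1*, *Kdr* with *Tie1*, *Tek* with *Angpt2* and *Emcn* with *Esm1*. In control cortex the order was *Angpt1*, *Apln*, *Aplnr*, *Kdr*, *Tie1*, *Tek*, *Flt1*, *Angpt2*, *Emcn* and *Esm1*. The overlapping neighbours were *Angpt1* with *Apln*, *Kdr* with *Tie1* and *Tek* with *Flt1*. *Angpt2* stood above *Flt1* in cKO and below it in control libraries, with no overlap of ranges in either group. The margin in cKO was very narrow, 1.528 FPKM in the lowest *Angpt2* library beside 1.515 FPKM in the highest *Flt1* library. The order of these genes was not tested.

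Of 32 other genes of these pathways, 28 were tested, and 2 rose and 0 fell, beside 5.53% of all tested genes called. *Mcam*, an adhesion receptor of endothelial and mural cells (ENSMUSG00000032135, chromosome 9, 44134469 to 44142727), was 4.71, 4.27 and 4.56 FPKM in cKO, against 3.02, 2.92 and 2.74 FPKM in control libraries. Its log2 fold change was 0.62 (SE 0.09, limma adjusted p = 0.0132), and the adjusted p was 0.0649 without the first cKO library and 0.0585 without the second control library. *Nrp1*, a VEGF co-receptor that neurons also express (ENSMUSG00000025810, chromosome 8, 128359073 to 128505462), was 10.3, 9.83 and 9.14 FPKM in cKO, against 7.66, 7.49 and 6.50 FPKM in control libraries. Its log2 fold change was 0.43 (SE 0.09, limma adjusted p = 0.0393), and the adjusted p was 0.0520 to 0.142 with any 1 library left out. For *Nrp1* it was also 0.0583 with median-ratio scaling, 0.0632 with upper-quartile scaling, 0.0670 with no filter and 0.0620 with no mean-variance trend. When libraries were centred on endothelial genes, the limma adjusted p was 0.334 for *Nrp1* and 0.106 for *Mcam*. In the authors' deposited table *Mcam* had a q-value of 0.0144 and *Nrp1* one of 0.0490, and neither was called.

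Other genes of the list did not pass. *Vegfa*, the main ligand of *Kdr*, was 4.65, 4.70 and 3.43 FPKM in cKO, against 4.01, 3.69 and 3.41 FPKM in control libraries, and the groups overlapped. *Vegfb*, a ligand of FLT1, was 18.5 ± 0.596 FPKM in cKO and 17.6 ± 1.31 FPKM in control. *Dll4*, the Notch ligand of tip cells, was 1.70 ± 0.0511 FPKM in cKO and 1.72 ± 0.0926 FPKM in control (log2 difference -0.01, 95% interval -0.29 to 0.26). *Unc5b*, a netrin receptor of tip cells, was 2.69 ± 0.172 FPKM in cKO and 1.87 ± 0.184 FPKM in control (log2 difference 0.51, limma adjusted p = 0.0575). *Pdgfb*, which endothelial cells use to recruit pericytes, was 13.8 ± 1.37 FPKM in cKO and 10.7 ± 0.924 FPKM in control (limma adjusted p = 0.0761). *Plxnd1*, a semaphorin receptor and the most abundant gene of the list, was 28.7 ± 1.04 FPKM in cKO and 33.5 ± 1.92 FPKM in control (log2 difference -0.22, limma adjusted p = 0.0852). *Efnb2*, an ephrin of arterial endothelium, was 20.5 ± 1.93 FPKM in cKO and 21.8 ± 3.81 FPKM in control. All values given here with ± are mean ± SD, n = 3 each. They are values of bulk cortex, and which cells held the RNA of these genes was not tested. *Vegfa*, *Dll4*, *Unc5b*, *Ptprb*, *Angpt4* and *Apela* were named after their values were seen. The median log2 fold change of the 28 genes was 0.11, beside 0.07 over all tested genes, and 8 of 28 lay above without overlap and 2 of 28 below, near the 21.5% and 8.17% of all tested genes.

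**Figure D4:**
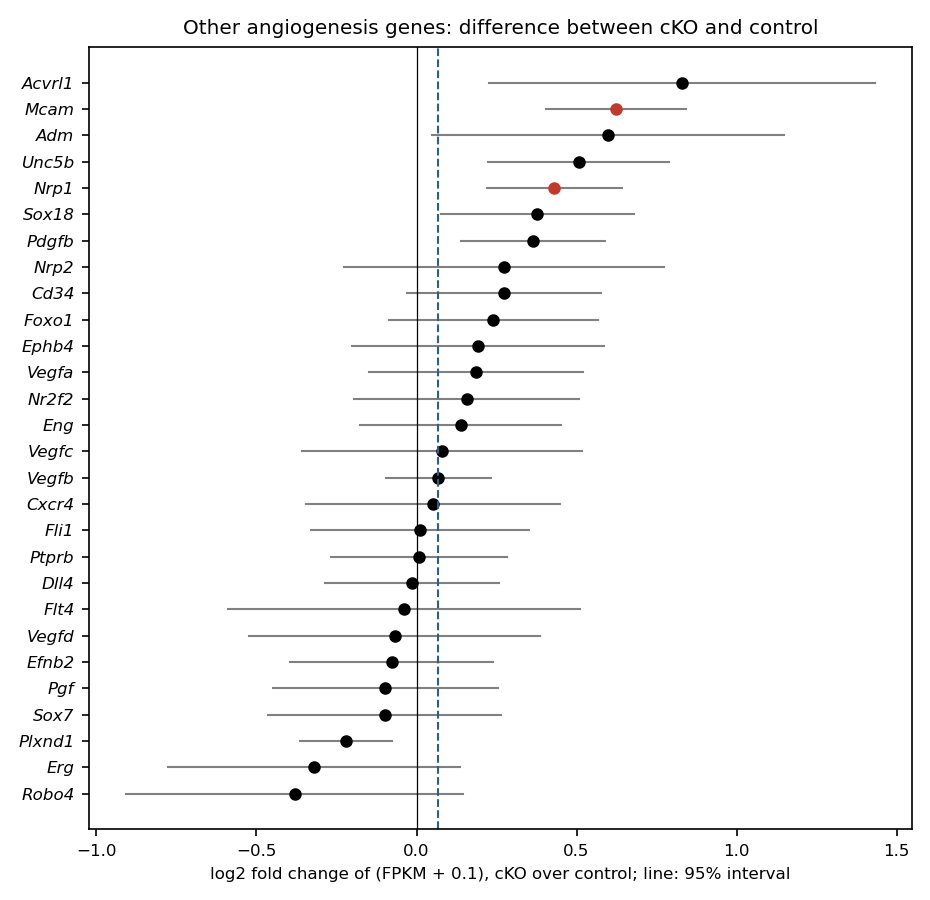
Log2 fold change of FPKM + 0.1, cKO over control (horizontal axis), with the limma 95% interval, for the 28 tested genes of VEGF, TIE and apelin signalling, tip cells and endothelial transcription factors. Red points, *Mcam* at 0.62 and *Nrp1* at 0.43, passed an adjusted p of 0.05, and the dashed line is the median over all tested genes, 0.07.

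In bulk tissue, fewer cells of a type and less RNA per cell cannot be told apart, so markers of vessel cells were read beside these values. Of 16 endothelial and barrier genes not among the 10, 1 rose and 0 fell, beside 5.53% of all tested genes called. The gene that rose was *Cdh5*, which encodes VE-cadherin (log2 fold change 0.70, limma adjusted p = 0.0469, and 0.0249 to 0.143 over the alternatives). The summed level of the 16 was 132.5 to 160.4 FPKM in cKO and 120.9 to 131.0 FPKM in control libraries, none was at 0 in any library, and their median log2 fold change was 0.16. By gene, the groups overlapped for 11 of the 16, and 4 lay above and 1 below without overlap. These counts are near the 21.5% above and 8.17% below of all tested genes. *Itm2a* had the highest level (56.3 ± 9.94 FPKM in cKO and 44.4 ± 1.66 FPKM in control, SD, n = 3 each), and its groups overlapped. *Cldn5* was next, at 39.8 ± 1.31 FPKM in cKO and 32.9 ± 3.61 FPKM in control, without overlap. With *Itm2a* it made up most of the sum. The gene below was *Mfsd2a*, a lipid transporter of the blood-brain barrier, at 9.60, 9.89 and 11.0 FPKM in cKO, against 12.2, 14.8 and 11.9 FPKM in control cortex (log2 difference -0.34, limma adjusted p = 0.103). *Itm2a*, *Cldn5* and *Mfsd2a* were named after their values were seen. With each library centred on the mean log2 level of these 16 genes, the log2 difference was 0.54 for *Angpt2* (limma adjusted p = 0.123), 0.21 for *Aplnr* (0.400), 0.13 for *Tek* (0.696), 0.10 for *Tie1* (0.742), 0.09 for *Kdr* (0.796) and 0.41 for *Emcn* (0.380). On that scale the median over all tested genes was -0.10, and *Angpt1* fell by 0.54 (limma adjusted p = 0.0299). Without centring the *Angpt1* log2 difference was -0.37 and did not pass (limma adjusted p = 0.0998). Calls over all tested genes were 215 higher and 429 lower with centring, and 519 higher and 264 lower without. Perivascular cells secrete angiopoietin 1, so endothelial genes do not measure the cells it comes from.

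Over all tested genes 3.67% were called higher and 1.87% lower, to be set beside the counts that follow. Among 9 tested mural cell genes 2 rose and 0 fell, *Tagln* and *Abcc9* (log2 fold changes 0.99 and 0.58). The median log2 fold change of the 9 was 0.49. Without overlap 6 of 9 lay above and 0 below, beside 21.5% and 8.17% of all tested genes. *Anpep*, named after its values were seen, counts in that median and passed the filter through its cKO libraries. With any 1 library left out, *Abcc9* had a limma adjusted p of 0.0641 to 0.138 and *Tagln* one of 0.0198 to 0.0563. The summed level of the 11 listed mural genes was 68.6 to 71.1 FPKM in cKO and 52.3 to 59.3 FPKM in control libraries. Its largest part was *Rgs5*, named after its values were seen. Of 8 meningeal fibroblast genes 3 rose and 0 fell, and their sum was 62.9 to 103.9 FPKM in cKO and 32.3 to 48.4 FPKM in control libraries. Of 8 astrocyte genes 0 rose and 5 fell, *Aldoc*, *Fgfr3* and *Aldh1l1* among them, and their sum was 46.4 to 107.1 FPKM in cKO and 156.4 to 211.7 FPKM in control libraries. Of 3 tested choroid plexus genes 0 were called. The sum of all 6, nearly all of it *Ttr*, was 183.9 to 884.0 FPKM in cKO and 34.7 to 180.7 FPKM in control libraries. No gene of these lists was at 0 in any library, and their part in the values of the 10 genes was not tested. Of 8 oligodendrocyte lineage genes 7 rose, of 8 microglial genes 2 rose, of 8 neuronal genes 1 rose and 1 fell, and of 5 blood genes 0 were called.

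The log2 levels of the receptor genes *Flt1*, *Kdr*, *Tek* and *Tie1*, centred on 0, were averaged to give a mean profile over the 6 libraries. It was 0.09, 0.07 and 0.20 in cKO, against -0.14, -0.22 and -0.0071 in control libraries. Not every gene followed it: it was highest in the third cKO library, where *Flt1* had its lowest cKO value. The genes nearest to the mean profile, among those with a mean of at least 1 FPKM, were *Bahd1*, *Pfn1*, *Prrc2a*, *Hcn2* and *Arf4*. Their root mean square difference from it was 0.0258 to 0.0286 on the log2 scale over the 6 libraries. None is an endothelial marker of the lists used here. Such markers were 16 among 14147 tested genes, so their absence among 5 genes was likely beforehand and says nothing about cell type.

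**Figure D5:**
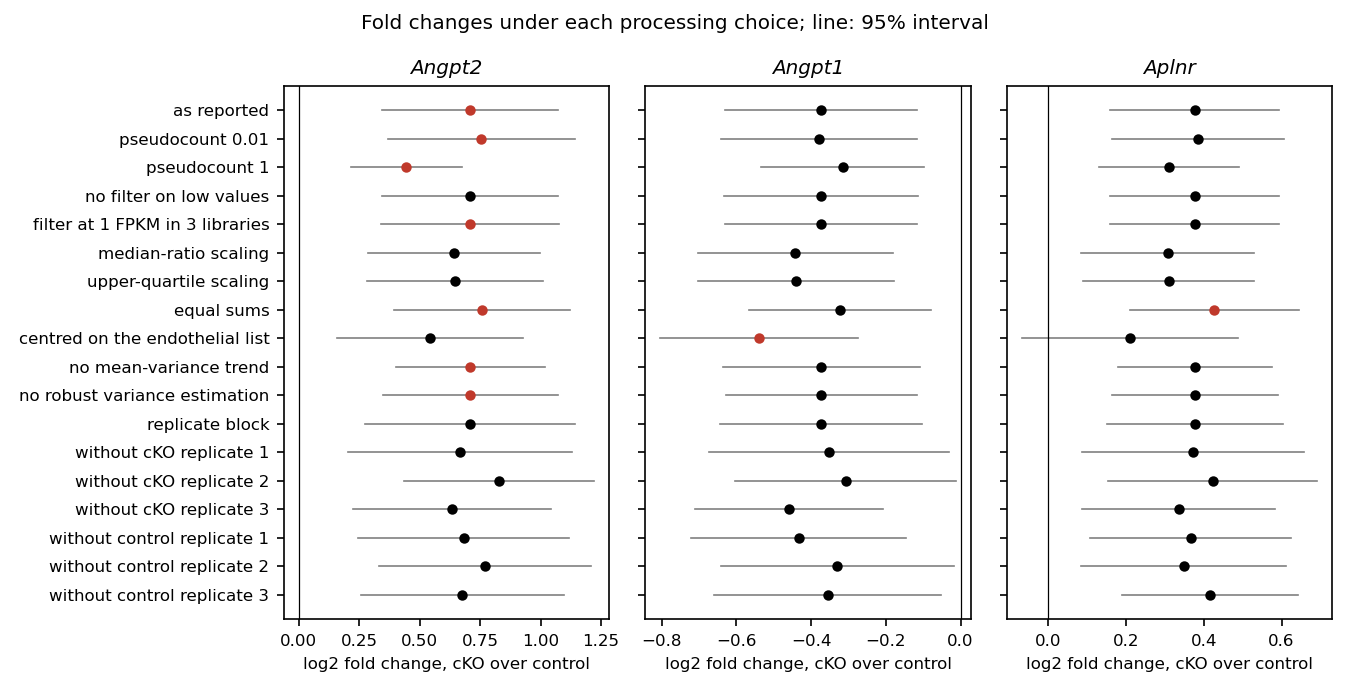
Log2 fold change, cKO over control (horizontal axis, a scale for each gene), of *Angpt2*, *Angpt1* and *Aplnr* under each processing choice (rows) with the limma 95% interval. Red points passed an adjusted p of 0.05. *Angpt2* stays between 0.44 and 0.83, and passes in none of the 6 rows that leave out a library.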

How the data were processed

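Total RNA of mouse cortex was sequenced, 3 cKO and 3 control libraries. Per the file headers, the deposited values are FPKM. Per the submitters' processing notes, reads were placed on mm10. Which aligner, counter and annotation were used, and whether strand was, is not given in the sources used here. No test is stated for the authors' deposited q-values, and they are quoted only for named genes. The per-library tables held the same 208470 values as the series-wide table.

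In genes with 1 GENCODE M21 transcript, 93.2% to 94.0% of values under 20 implied fragments were within 0.01 of a whole number. Most of the 10 genes have several transcripts, so counts were not recovered for them and no count test was run. FPKM carry no counting interval, and the fragments given for *Apln* and *Esm1* cover counting only.

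The test was limma 3.58.1 in R 4.3.3 (moderated, trend and robust options on) applied to log2(FPKM + 0.1), which understates changes of low genes, with group as the sole term. Genes needed 0.5 FPKM in 3 libraries. An adjusted p under 0.05 was called. The steps were tested on simulated data. Ratios were tested by exact permutation. Python 3.11.15, pandas 2.3.3 and matplotlib 3.10.9 served for tables and figures.

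The 10 genes, the 11 lists (120 genes, all found, 1 of them by gene ID) and the settings were chosen with earlier results of these data known. The lists are the 10 genes, other pathway genes, and markers of endothelium, mural cells, astrocytes, meningeal fibroblasts, choroid plexus, blood, neurons, oligodendrocyte lineage and microglia. Genes were named by a rule: all 10, *Psenen*, called pathway genes and the 4 of highest level, up to 3 called genes or the 2 of highest level per marker list, and the 5 nearest to the receptor profile. Not all are named in the text. Alternatives varied the pseudocount, filter, scaling, test options, replicate block and each library left out. Coordinates are those of the deposited tables, and strands are from GENCODE M21.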

Additional observations from a re-analysis of the deposited data

How the results depend on the processing

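With the alternatives tried, the *Angpt2* to *Angpt1* difference kept its direction. Of the 10 genes, 0 were called with no filter on low values, with median-ratio scaling, with upper-quartile scaling and with the replicate number as a block, 2 with equal sums, 1, *Angpt1*, which fell, with endothelial centring, and 0 without any 1 of the 6 libraries. The range with 1 library left out was 0 to 2 for pathway genes and 0 to 2 for endothelial genes. Pathway calls were 1 with no filter, 1 with median-ratio scaling, 1 with upper-quartile scaling, 4 with equal sums and 1, which fell, with endothelial centring. Endothelial calls were 0 with no filter, 0 with median-ratio scaling, 0 with upper-quartile scaling, 0 with no mean-variance trend and 2 with equal sums. Over all genes, 783 of 14147 were called, 499 of 23331 with no filter and 456 of 14147 with the replicate block. Median-ratio scaling called 658 of 14135, upper-quartile scaling 658 of 14134 and no mean-variance trend 634 of 14147. Equal sums called 1153 of 14140 (909 higher, 244 lower), and endothelial centring 644 of 14147 (215 higher, 429 lower). With 1 library left out 210 to 813 were called, the fewest without the second control library. The list counts above are to be read beside these totals. The share of calls that were higher, 66.3%, was 47.4% with median-ratio, 48.5% with upper-quartile scaling, 78.8% with equal sums and 33.4% with endothelial centring.

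The *Apln* log2 difference was -0.024 with median-ratio scaling, -0.022 with upper-quartile scaling and -0.12 with endothelial centring, and -0.074 to 0.14 with 1 library left out. *Vegfb* was -0.0036, -0.00081 and -0.099 under the same 3 scalings, and *Flt1* -0.013 with endothelial centring. With 1 library left out the *Flt1* to *Kdr* log2 difference was -0.18 to 0.023, *Efnb2* -0.23 to 0.0033 and *Hbb-bt* -0.095 to 0.61. The cause of these changes was not tested.

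Replicate numbers are shared between the groups, but same-numbered libraries had deviations that correlated by 0.06, 0.01 and 0.10, so not every pair was over 0.1 and the numbers were not taken to pair the samples. cKO libraries 1 and 3 correlated best with the control library of their own number, and cKO library 2 with control library 1. With the replicate block *Angpt2* had an adjusted p of 0.1003. Over 3 blocked pairs the exact p of the *Angpt2* to *Angpt1* ratio is 0.25, the smallest possible. *Esm1* rests on 9 to 36 fragments per library.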
